A study of Mus musculus with 6 samples.

Results

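The NRF2 antioxidant and glutathione genes described here are 10 named rows of a mouse gene count table of 54532 rows: Nfe2l2, Keap1, Nqo1, Hmox1, Gclc, Gclm, Gsr, Txnrd1, Srxn1 and Prdx1. They were taken by gene name, each name was found once, and all 10 passed the filter on low counts that left 13472 genes for testing. The study asked which transcripts differ when IRS2, an adaptor of the insulin and IGF receptors, is silenced in Glu-tag cells, which the series treats as a small-intestinal neuroendocrine tumour line. RNA was sequenced from 3 libraries titled sh-IRS2, of a stable line with the genotype label IRS2 knockdown, and 3 titled sh-control, with the genotype label WT; no drug or other treatment is named. They are called shIRS2 and shControl below, with the number from 1 to 3 that each title carries. The design text calls the replicates biological, while no source used here says what a number stands for or whether the stable line was a clone.

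NRF2, the product of Nfe2l2, is a transcription factor that KEAP1 holds in the cytosol and hands to a CUL3 ubiquitin ligase for destruction. Electrophiles and oxidants modify cysteines of KEAP1, NRF2 then escapes, pairs with a small MAF protein and binds antioxidant response elements beside genes for glutathione synthesis, thioredoxin reduction, quinone reduction and heme breakdown. Much of this control acts on the NRF2 protein, which RNA counts do not measure.

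The element that NRF2 and small MAF proteins bind has a core spelled TGACNNNGC, and it is shown because it is the sequence the pathway is read through. RefSeq promoter windows of build GRCm38.p6 (250 bases before to 50 after each start) were matched for 7 of the 10 genes, in 9 windows, and 5 genes held the core on either strand. Hmox1, Gsr and Gclc had no matched window and were not searched. Of 27025 genes with such windows 14% held it, and of 32851 windows 12.4%. In the lines below, each on the gene's own strand and read 5′ to 3′, capitals mark the core.
Nfe2l2: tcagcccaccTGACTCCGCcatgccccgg
Gclm: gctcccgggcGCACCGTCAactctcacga
Txnrd1: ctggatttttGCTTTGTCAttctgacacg
Srxn1: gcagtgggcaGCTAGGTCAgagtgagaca
Prdx1: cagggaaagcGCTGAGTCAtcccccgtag
The Nfe2l2 stretch lies at chr2:75704885-75704913 on the minus strand, with its core beginning 240 bases before the start. The Gclm stretch lies at chr3:122245413-122245441, with its core 134 bases before the start, and the Prdx1 stretch at chr4:116685456-116685484, with its core 133 bases before. The Txnrd1 stretch lies at chr10:82859104-82859132, with its core 92 bases before 1 of the 3 starts listed for that gene. The Srxn1 stretch lies at chr2:152105542-152105570 and its core begins at base 29 after the start. The last 4 genes are on the plus strand and hold the core in reverse. The Prdx1 core also holds TGANTCA, the letters of an AP-1 site, and the windows of Nqo1 and Keap1 held no core, which says only that these letters are not in these windows.

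Library totals ran from 14991019 to 19790073 counts. The level of Irs2 did not fall with the knockdown label: it stood at 31.4, 28.6 and 38.7 CPM (counts per 1000000 counts of the library) there, against 31.6, 22.7 and 34.3 CPM in the shControl libraries numbered 1 to 3, a log2 fold change of 0.17 (SE 0.16). Groups are therefore named by their labels throughout. Of 17 enteroendocrine markers 15 lay under 1 CPM in every library, and Gcg, Chga, Pcsk1, Neurod1 and Pyy, which define the labelled cell type, had 0 counts in all 6 libraries, which allows up to 0.0295 CPM. Pax6 alone exceeded 1 CPM in every library, at 19.8 to 27.3 CPM. The data thus go against the label as an enteroendocrine line, and the cells are called by their label only. Summed levels of 12 fibroblast markers were 1188 CPM in shIRS2 number 2 and 922 CPM in shControl number 2. The other shIRS2 libraries had 1249 and 1337 CPM and the other shControl libraries 900.2 and 1310 CPM. Of the 12, 6 averaged above 1 CPM, and 2, Thy1 and Postn, were at 0. Summed levels of 12 macrophage and leukocyte markers ran from 14.2 to 19.7 CPM in libraries labelled shIRS2, against 14.3 to 22.5 CPM in shControl libraries. Of these 12, 3 averaged above 1 CPM and 5 were at 0, among them Adgre1, Itgam, C1qa and Cd3e.

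Both libraries numbered 2 stood apart from the other 4. In a fit with hairpin group and number, 3169 of 13472 genes, 23.5%, passed an adjusted p of 0.05 for number 2 against numbers 1 and 3 (edgeR). Number 2 was singled out with earlier results of these data known, so p-values of this contrast here and below do not allow for that choice. The libraries numbered 2 had mitochondrial shares of 1.71% and 1.63%, against 1.61%, 1.44%, 1.25% and 1.40% in those numbered 1 and 3, and normalization factors of 0.9825 and 0.9895, against 1.001 to 1.018. The part of these values in the results by number was not tested. In bulk RNA, fewer cells of a type and less RNA per cell cannot be told apart.

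Levels per gene length were compared with the authors' FPKM values (fragments per kilobase and 1000000 fragments). Prdx1, which encodes an abundant peroxidase of the cytosol, was highest at 191 to 212 FPKM over the 6 libraries. Txnrd1, the cytosolic selenoprotein that recharges thioredoxin, followed at 73.7 to 89.9 FPKM, and Gsr, which returns oxidized glutathione to its reduced form, at 68.0 to 77.0 FPKM, a range that overlaps that of Txnrd1. Within each of the 6 libraries Txnrd1 was higher than Gsr. Nfe2l2 stood at 39.0 to 49.3 FPKM, above all of the lower genes but Hmox1, whose range of 23.4 to 42.0 FPKM reached into it. Nfe2l2 was still higher than Hmox1 within each of the 6 libraries. Srxn1 (29.9 to 36.2 FPKM) and Gclc (25.7 to 32.7 FPKM) overlapped each other and Hmox1. Keap1 (14.4 to 16.7 FPKM), Nqo1 (11.8 to 16.5 FPKM) and Gclm (10.9 to 15.0 FPKM) made up the lowest part and were not separated from one another.

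**Figure D1:**
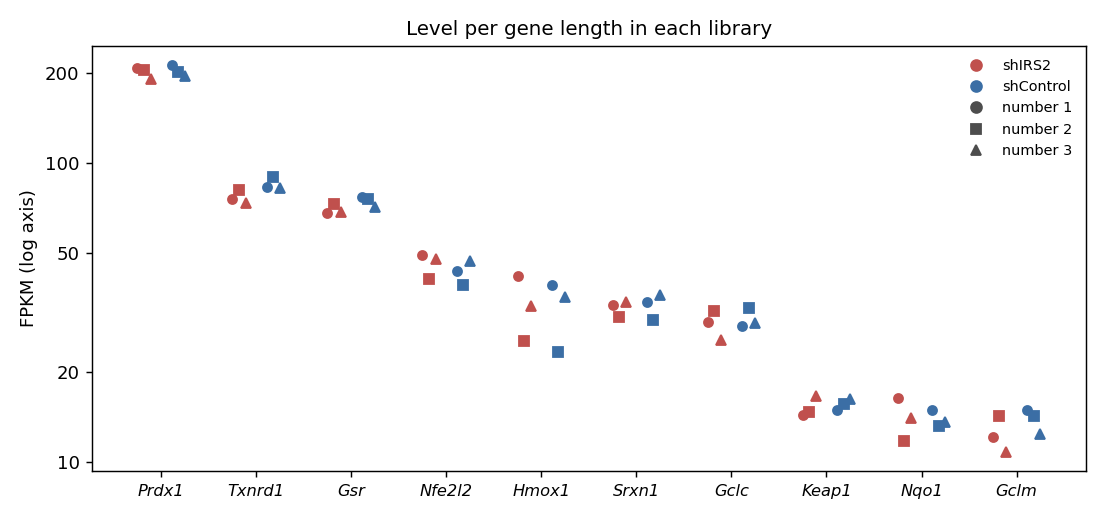
Level per gene length (FPKM, log axis) of the 10 genes, ordered by their mean, with shIRS2 libraries left of shControl libraries and the marker shape giving the replicate number. Prdx1 lies above all others at 191 to 212 FPKM, and Hmox1 has the widest spread, with both squares (number 2) at the bottom of its range.

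Between the hairpin groups the antioxidant genes lay close together. None of the 10 genes passed the edgeR test, in which 0 of 13472 genes did, 0%, with 262 of all genes and 0 of the 10 at an unadjusted p under 0.05. DESeq2 and limma on FPKM also called 0 genes. Log2 fold changes, shIRS2 over shControl, were positive for 3 of the 10 genes and negative for 7, with a median of -0.03 beside 0.00 over all genes tested, and the largest in size was 0.16. The groups overlapped in 9 of the 10 genes, where 6.52% of all genes tested did not overlap.

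The sensor and its factor did not separate the hairpin groups. Nfe2l2 (ENSMUSG00000015839, minus strand of chromosome 2, 75675513 to 75704641 in mm10) had 188, 153 and 183 CPM in libraries labelled shIRS2 numbered 1 to 3, against 169, 147 and 180.1 CPM in shControl libraries. The lowest value in each group was that of number 2, and the fitted log2 difference was 0.09 (SE 0.10), with a 95% interval from -0.14 to 0.33. Keap1 (ENSMUSG00000003308, minus strand of chromosome 9, 21229730 to 21239361) had 68.1, 68.0 and 78.8 CPM against 71.6, 73.0 and 76.8 CPM, a log2 fold change of -0.03 (SE 0.09). The antisense gene Gm16754 overlaps Keap1 and held 237 counts beside 7385 for Keap1.

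Among the enzymes of the thioredoxin branch, Txnrd1 was the member whose groups did not overlap. Txnrd1 (ENSMUSG00000020250, plus strand of chromosome 10, 82833951 to 82897712) had 539.9, 568 and 525 CPM in libraries labelled shIRS2 numbered 1 to 3, against 606, 632 and 589 CPM in shControl libraries. Every shIRS2 value lay below every shControl value, and the 3 numbered pairs gave log2 ratios of -0.17, -0.16 and -0.16. Over all genes tested 6.52% had groups that did not overlap. The fitted difference on the log2 scale was -0.15 (SE 0.08), its 95% interval ran from -0.33 to 0.03, and edgeR gave it an unadjusted p of 0.0965 and an adjusted p of 1.00. With the replicate block, under which 0.00742% of all genes and 0 of the 10 passed, the edgeR unadjusted p was 0.0185 and the adjusted p 0.438. Eid3, a gene on the same strand inside the Txnrd1 interval, held 310 counts beside 58741 for Txnrd1.

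Srxn1, the sulfiredoxin that repairs overoxidized peroxiredoxins (ENSMUSG00000032802, chromosome 2, 152105516 to 152111376, plus strand), had 95.4, 84.8 and 97.4 CPM against 99.0, 83.7 and 103 CPM. Prdx1 (ENSMUSG00000028691, chromosome 4, 116685544 to 116700822, plus strand) had 639, 614 and 583 CPM against 661, 611 and 602 CPM. Both sets of values interleave, and the log2 fold changes were -0.03 (SE 0.10) and -0.02 (SE 0.08). For Prdx1 the 95% interval, -0.20 to 0.16, was among the narrowest of the 10.

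The glutathione enzymes also overlapped between the hairpin groups. Gclc, the catalytic subunit of the ligase that makes the first bond of glutathione (ENSMUSG00000032350, chromosome 9, 77754535 to 77794485, plus strand), had 111, 119 and 97.4 CPM against 109.9, 122 and 111 CPM, a log2 fold change of -0.06 (SE 0.11). Gclm, the modifier subunit that makes the ligase more efficient (ENSMUSG00000028124, chromosome 3, 122245557 to 122270732, plus strand), had 76.9, 88.6 and 68.7 CPM against 96.3, 89.1 and 79.0 CPM. Its pair ratios on the log2 scale were -0.33, -0.01 and -0.20, and its log2 fold change was -0.16 (SE 0.12, 95% interval -0.43 to 0.11). Gsr (ENSMUSG00000031584, chromosome 8, 33652523 to 33698163, plus strand) had 189, 199 and 189.9 CPM against 217, 207 and 198 CPM, a log2 fold change of -0.10 (SE 0.08). All 3 pair ratios of Gclm and Gsr were negative, but within each gene the highest shIRS2 library exceeded the lowest shControl library. The 3 pair ratios shared a sign in 4 members, negative in Txnrd1, Gclm and Gsr and positive in Nfe2l2, at 0.16, 0.06 and 0.02. The share of all genes with the same sign in every pair was not computed. With the replicate block Gclm had an unadjusted p of 0.0399 and an adjusted p of 0.515 in edgeR, and with Txnrd1 it was 1 of 2 members under an unadjusted 0.05 there, where 9.16% of all genes were.

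The inducible quinone and heme enzymes had nearly equal group means. Nqo1, a quinone reductase widely used as a readout of NRF2 (ENSMUSG00000003849, chromosome 8, 107388225 to 107403206, minus strand), averaged 21.9 ± 3.83 CPM in libraries labelled shIRS2 and 21.8 ± 1.76 CPM in shControl libraries (SD, n = 3 each). Hmox1, the enzyme that opens the heme ring (ENSMUSG00000005413, chromosome 8, 75093621 to 75100589, plus strand), averaged 58.9 ± 15.1 CPM and 58.0 ± 15.4 CPM (SD, n = 3 each). Its interval was the widest of the 10, at a log2 fold change of 0.04 (95% interval -0.45 to 0.53), and it narrowed to -0.11 to 0.19 with the replicate block.

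**Figure D2:**
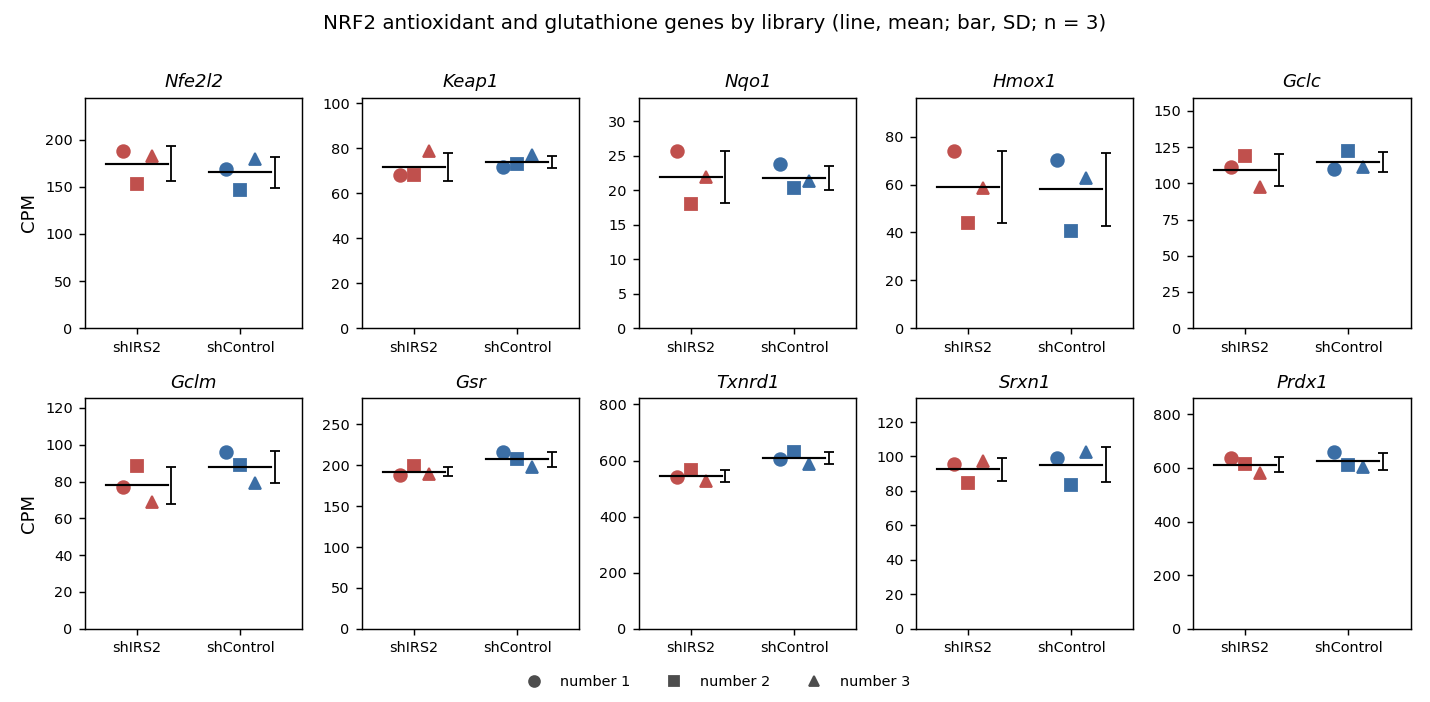
CPM of each gene in the 3 libraries labelled shIRS2 (left, red) and the 3 shControl libraries (right, blue), with the marker shape giving the replicate number, the line the mean and the bar the SD. Groups overlap in 9 of 10 genes, Txnrd1 being the exception, where 6.52% of all genes tested do not overlap. The squares of number 2 are the lowest points of both groups for Nfe2l2, Nqo1, Hmox1 and Srxn1.

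By replicate number some of the genes passed the test. For number 2 against numbers 1 and 3, 2 of the 10 genes fell at an adjusted p of 0.05 and 0 rose in edgeR, where 11.9% of all genes tested fell, 11.6% rose and 23.5% passed in either direction. The share of 2 in 10 is near that background. At an unadjusted p under 0.05 in edgeR there were 6 of the 10 genes and 35.9% of all genes. The log2 difference was negative in 5 genes and positive in 5, with a median of -0.01 beside 0.00 over all genes. In 5 genes the libraries numbered 2 did not overlap the other 4, lower in 4 genes and higher in 1, where 40.1% of all genes tested did not overlap, 23.4% lower and 16.7% higher.

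Hmox1 showed the widest difference. It had 43.9 CPM in the shIRS2 and 40.7 CPM in the shControl library numbered 2, against 74.1 and 58.7 CPM in the shIRS2 libraries numbered 1 and 3 and 70.4 and 62.8 CPM in the shControl ones. Both libraries numbered 2 lay below all 4 others, and the highest library held 1.82 times the CPM of the lowest. The log2 difference was -0.62 (SE 0.08) and its 95% interval ran from -0.78 to -0.46, at an adjusted p of 7.68e-05 in edgeR. Its size lay at percentile 92.3 among the sizes of all genes tested. Within the hairpin groups the same difference was -0.59 in shIRS2 and -0.71 in shControl libraries. Between numbers 3 and 1 its log2 difference was -0.24 (SE 0.08), at an unadjusted p of 0.0119 and an adjusted p of 0.312 in edgeR, which did not pass. The summed level of the macrophage and leukocyte markers was 18.1 CPM in both libraries numbered 2, against 19.7, 14.2, 22.5 and 14.3 CPM in the others.

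Nfe2l2 was lower to a smaller degree. The libraries numbered 2 held 153 CPM (shIRS2) and 147 CPM (shControl), against 188 and 183 CPM in shIRS2 and 169 and 180.1 CPM in shControl libraries numbered 1 and 3. These values did not overlap, and the log2 difference was -0.23 (SE 0.06), its 95% interval running from -0.37 to -0.09, at an adjusted p of 0.0188 in edgeR. Its size was at percentile 58.4 of all genes tested. The call was lost without either library numbered 2, at adjusted p-values of 0.313 without that of shIRS2 and 0.274 without that of shControl. In limma on log2(FPKM + 1) it missed the threshold at 0.0533. In the edgeR test for any difference among the 3 numbers, which called 19.6% of all genes, Nfe2l2 had an adjusted p of 0.051 and Hmox1 of 0.000181, and Hmox1 was the 1 member called.

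Gclc and Gclm, the subunits of the glutathione ligase, had the opposite sign. Gclc had 119 and 122 CPM in the libraries numbered 2 of shIRS2 and shControl, against 97.4 to 111 CPM in the other 4, a log2 difference of 0.20 (SE 0.07) with an edgeR adjusted p of 0.0542. Gclm had 88.6 and 89.1 CPM against 68.7 to 96.3 CPM, a log2 difference of 0.19 (SE 0.08) with an adjusted p of 0.0892 in edgeR. Srxn1 went the other way, with 84.8 and 83.7 CPM against 95.4 to 103 CPM, a log2 difference of -0.20 (SE 0.07) and an adjusted p of 0.0519. Nqo1 had 18.1 and 20.3 CPM against 21.3 to 25.7 CPM, a log2 difference of -0.24 (SE 0.11) with an adjusted p of 0.119 in edgeR. Leaving out the library numbered 2 of shIRS2 moved the log2 difference of Gclm to 0.06 and that of Nqo1 to -0.11, and leaving out that of shControl moved them to 0.32 and -0.37. In edgeR Gclc, Gclm and Srxn1 each passed when certain single libraries numbered 1 or 3 were left out, with lowest adjusted p-values of 0.00978, 0.0144 and 0.032. With all 6 libraries, Gclc, Srxn1 and Nqo1 kept the libraries numbered 2 apart from the other 4 without passing the test, and in Gclm they lay inside the range of the others.

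The remaining members differed less by number. Txnrd1 had a log2 difference of 0.12 (SE 0.06) and an edgeR adjusted p of 0.171, and Gsr one of 0.06 (SE 0.06). Keap1 stood at -0.03 (SE 0.07), with a 95% interval of -0.18 to 0.11, and Prdx1 at 0.01 (SE 0.06), with one of -0.12 to 0.14. Between numbers 3 and 1, where 0.238% of all genes passed in edgeR and 0.134% passed as lower, 0 of the 10 genes did; Hmox1 and Gclm were under an unadjusted p of 0.05, as were 10.3% of all genes. Of the 5 genes shown above with the antioxidant core near their start, Nfe2l2, Srxn1, Gclm, Txnrd1 and Prdx1 thus had differences of -0.23, -0.20, 0.19, 0.12 and 0.01. Hmox1, at -0.62, was not searched for the core, and neither were Gsr and Gclc. Whether the core goes with the differences was not tested.

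**Figure D3:**
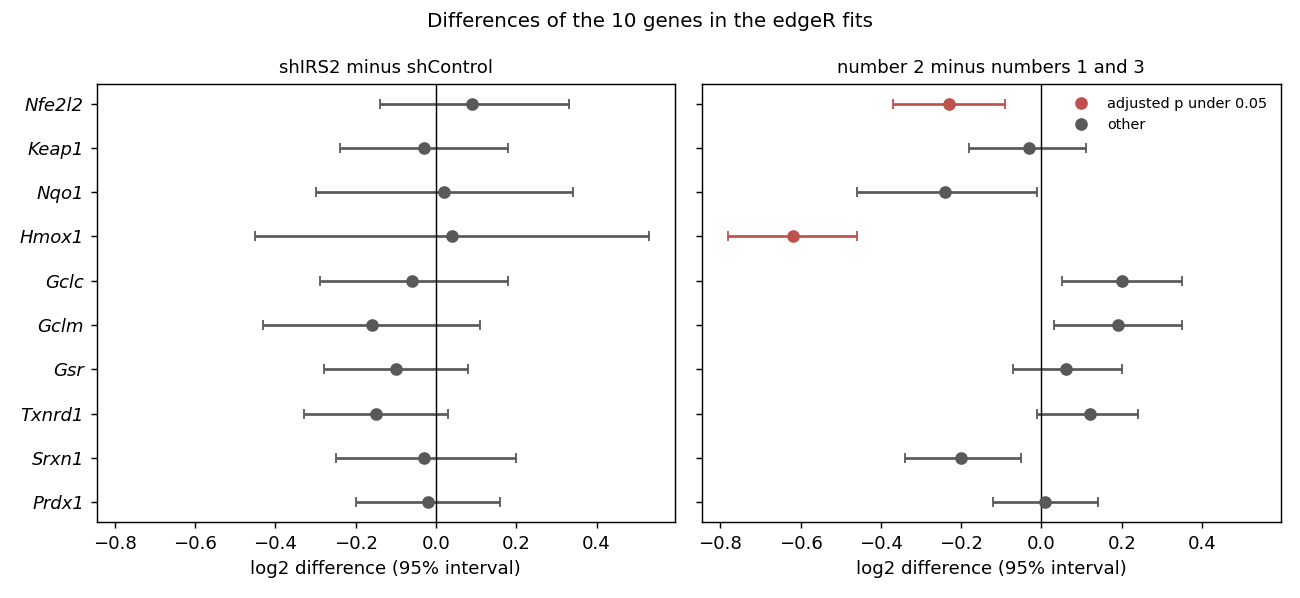
Log2 differences with 95% intervals in the edgeR fits for shIRS2 minus shControl (left) and number 2 minus numbers 1 and 3 (right), red where the adjusted p was under 0.05. All 10 intervals on the left span 0, while on the right Hmox1 at -0.62 and Nfe2l2 at -0.23 are red.

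The genes whose pattern over the 6 libraries was nearest to these members were sought among 8752 protein-coding genes averaging 10 CPM or more, by the root mean square difference of log2 CPM after subtracting each gene's mean. For Hmox1 they were Ndrg4, Tob1 and Cdk19, at 0.074, 0.075 and 0.078, where the pattern of Hmox1 itself had a root mean square of 0.311. For Nfe2l2 they were Tpd52 at 0.013, Cyth3 at 0.021 and Chmp4b at 0.022, and for Nqo1 Golgb1 at 0.034, Cstb at 0.034 and Rint1 at 0.039. None of these 9 belongs to the antioxidant lists below. Those lists held 118 tested genes, and only those that were protein-coding and averaged 10 CPM or more were among the 8752 searched. The 10 genes themselves were left out. An absence among 9 genes therefore says little.

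The wider pathway was described through 7 lists of 145 other genes, of which 118 were tested and 7 had 0 counts in all libraries (Gpx2, Gpx6, Gpx7, Gstm4, Hrg, Ces1g and Ces2c). By hairpin 0 of the 118 passed in edgeR, with 3 at an unadjusted p under 0.05, beside 1.94% of all genes tested. In 4 of the 118 the groups did not overlap, a share below the 6.52% of all genes. Of these, Msra and Ugdh were higher and Me1 and Blvra lower in libraries labelled shIRS2. Taldo1, transaldolase of the pentose phosphate pathway, named here after its values were seen, had 145, 138 and 167 CPM in libraries labelled shIRS2 numbered 1 to 3, against 102, 93.2 and 147 CPM in shControl libraries. Its groups overlapped, all 3 numbered pairs had a higher shIRS2 value, and its log2 fold change was 0.41 (SE 0.16), at an edgeR adjusted p of 1.00 and 0.125 with the replicate block. Me1, malic enzyme of the cytosol and a source of NADPH, had 104, 104 and 101 CPM in libraries labelled shIRS2 numbered 1 to 3, against 132, 120.3 and 117 CPM in shControl libraries. Its log2 fold change was -0.24 (SE 0.08), with an edgeR adjusted p of 1.00 and 0.253 with the replicate block. By number 38 of the 118 passed, 11 higher and 27 lower in number 2, which is 32.2% beside 23.5% of all genes, and the median log2 difference was -0.13 beside 0.00. Without the library numbered 2 of shIRS2 the count was 9, or 7.63% beside 7.84% of all genes, so the list no longer exceeded the background. Without that of shControl it was 12, or 10.1% beside 5.90%.

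Among 14 tested regulators and partners of NRF2, 1 rose and 4 fell by number, or 35.7% beside 23.5% of all genes. Over all genes 11.6% rose and 11.9% fell, which is the background for each list below. Single lists were not examined with a library numbered 2 left out. Mafk, a small MAF partner, rose to 32.5 and 35.5 CPM in the libraries numbered 2 of shIRS2 and shControl, against 20.4, 20.7, 20.9 and 28.0 CPM in the others, a log2 difference of 0.63 (SE 0.10) with an edgeR adjusted p of 0.000589. Sqstm1, the autophagy adaptor that binds KEAP1, fell to 751 and 762 CPM, against 864 to 1011 CPM, and Bach1, the repressor that competes at antioxidant elements and at Hmox1 in particular, fell to 48.2 and 48.4 CPM, against 55.5 to 66.2 CPM. Nfe2l1, a related factor that drives proteasome genes, fell by 0.36 and the kinase gene Gsk3b fell by 0.21 on the log2 scale. Cul3 (0.15), Mafg (-0.18) and Palb2 (0.28), whose product binds KEAP1, did not pass, at edgeR adjusted p-values of 0.0872, 0.0788 and 0.107.

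Glutathione synthesis, supply and breakdown held the largest difference by number among these lists. Of its 15 tested genes 1 was higher and 6 were lower, or 46.7% beside 23.5% of all genes. Chac1, an enzyme that degrades glutathione, fell to 3.10 and 3.13 CPM in the libraries numbered 2 of shIRS2 and shControl, against 24.2, 21.8, 23.7 and 27.7 CPM, a log2 difference of -2.94 (SE 0.15) with an edgeR adjusted p of 5.54e-08. Slc7a11, the cystine importer, fell to 3.65 and 7.53 CPM, against 17.6, 10.5, 13.8 and 18.9 CPM (log2 -1.43, SE 0.32). Cth, which makes cysteine by transsulfuration, had a log2 difference of -0.78 and Oplah, which recycles oxoproline, one of -0.63. Ggct, which releases oxoproline from gamma-glutamyl peptides, rose by 0.77. Gss, which completes glutathione, did not pass, at 0.20 (SE 0.10). Chac1 and Slc7a11, like Sesn2 below, are also known as targets of the stress factor ATF4.

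In the enzymes that use glutathione, 2 of 23 tested genes rose and 4 fell, or 26.1%, near the 23.5% of all genes. Glrx3, a cytosolic glutaredoxin, rose by 0.30, while the transferase genes Gstt1 and Mgst2 fell by 0.90 and 0.50 on the log2 scale. Gpx1, the main cytosolic glutathione peroxidase, stood at -0.08 (SE 0.06) and Gpx4, which reduces lipid peroxides, at -0.28 (SE 0.10) with an edgeR adjusted p of 0.0534. Transferase genes have close paralogs and their counts are uncertain.

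Of 21 tested thioredoxins, peroxiredoxins and enzymes that remove reactive oxygen, 4 rose and 2 fell by number. That is 28.6%, near the 23.5% of all genes. Sesn2, a stress-induced sestrin, fell to 33.3 and 38.3 CPM in the libraries numbered 2 of shIRS2 and shControl, against 105, 103, 114 and 114 CPM, a log2 difference of -1.58 (SE 0.08) with an edgeR adjusted p of 2.96e-08, and Sesn3 fell by 0.64. Sod2, the mitochondrial superoxide dismutase, rose by 0.35, Prdx3, the mitochondrial peroxiredoxin, by 0.22, Prdx6 by 0.25 and Txnrd3 by 0.57. Txn1 (0.06), Txnrd2 (0.04), Prdx2 (-0.10), Sod1 (-0.14) and Cat (-0.24) did not pass.

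Among NADPH-generating enzymes 1 of 14 tested genes rose and 6 fell, or 50% beside 23.5% of all genes. Mthfd2, of the mitochondrial folate pathway, fell by 0.38, Pgls, of the pentose phosphate pathway, fell by 0.49, and Mthfd1, the cytosolic folate enzyme, rose by 0.28. G6pdx, which opens the pentose phosphate pathway and is a known NRF2 target, stood at -0.01 (SE 0.06), and Me1 at 0.02 (SE 0.07).

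Heme and iron genes gave 1 higher and 2 lower of 10 tested, or 30%, near the 23.5% of all genes. Tfrc, the transferrin receptor gene, rose to 563 and 594 CPM in the libraries numbered 2 of shIRS2 and shControl, against 346, 378, 379.7 and 443 CPM (log2 0.62, SE 0.06, edgeR adjusted p of 1.57e-05). Blvrb, which encodes a biliverdin reductase, fell by 0.45 and the heme transporter gene Slc48a1 fell by 0.23. The ferritin genes Fth1 (-0.15) and Ftl1 (-0.33) and the constitutive heme oxygenase gene Hmox2 (-0.09, SE 0.09) did not pass. Of 21 tested detoxification enzymes 1 rose and 3 fell, or 19%, below the 23.5% of all genes. Ptgr1, a reductase of reactive alkenals, stood at -0.55 (SE 0.08). The epoxide hydrolase gene Ephx1 stood at -0.45 and the fatty aldehyde dehydrogenase gene Aldh3a2 at -0.30, while Osgin1 did not pass at -0.21 (SE 0.08).

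**Figure D4:**
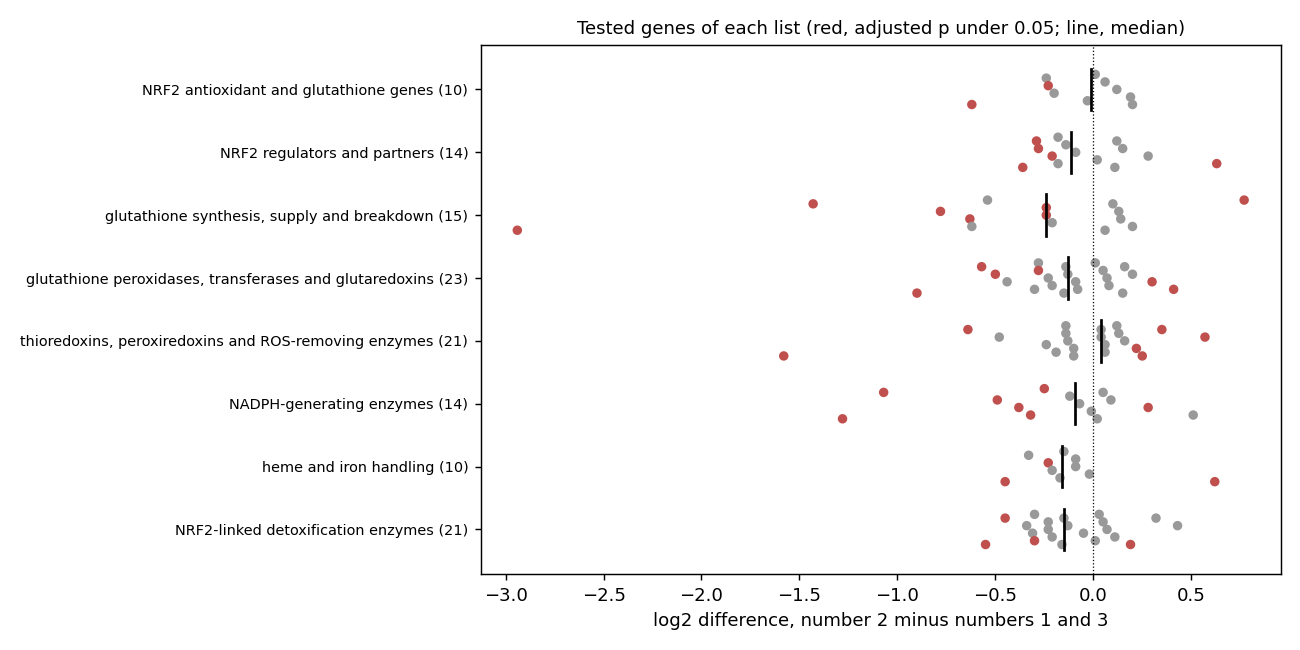
Log2 difference of number 2 minus numbers 1 and 3 for every tested gene of each list (number tested in brackets), red where the edgeR adjusted p was under 0.05, with a line at each list's median. The 10 genes centre on -0.01 with Hmox1 at -0.62, and the glutathione supply list reaches -2.94 at Chac1.

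**Figure D5:**
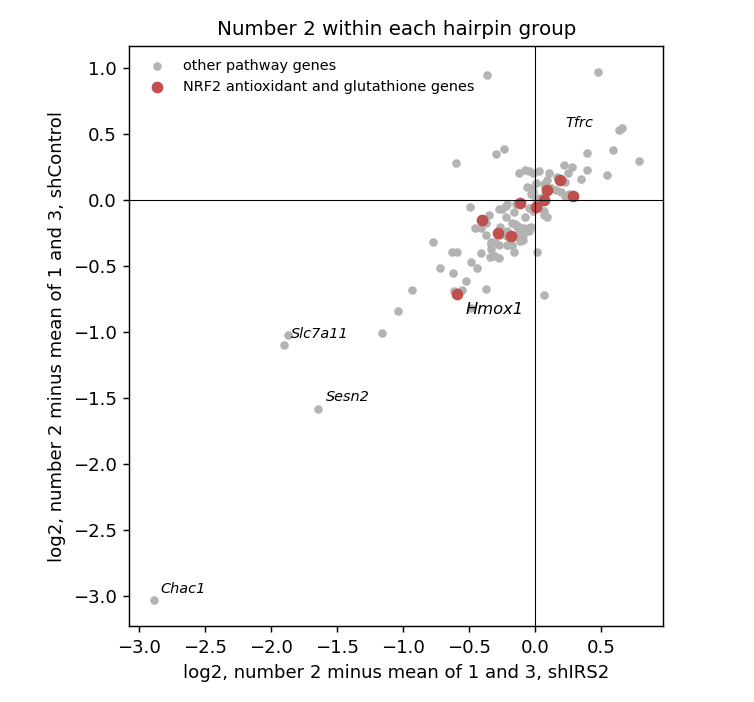
Log2 CPM of number 2 less the mean of numbers 1 and 3, computed within libraries labelled shIRS2 (horizontal) and within shControl libraries (vertical), which share no library. Hmox1 lies at -0.59 and -0.71, and 8 of the 10 genes have the same sign in both groups. The share of all genes with the same sign was not computed. Over the genes tested, the deviations of the 2 libraries numbered 2 from their group means correlated at 0.576.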

How the data were processed

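Strand-specific libraries of poly(A) RNA were read from both ends (150 bp), per the labels' protocols. Per the submitters' processing notes, mm10 is the build. Which aligner and counter were used, with which strand setting, is not given in the sources used here. The authors deposited whole-number counts per gene and FPKM values, which equal count over listed gene length and a per-library total. Columns NC and S were read by name as sh-control and sh-IRS2, with the number of the title.

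In R 4.3.3, edgeR 4.0.16 tested genes kept by filterByExpr (99.9% of counts) with TMM scaling and robust quasi-likelihood fits, by group alone, or by group plus number for the contrast of number 2. P-values were two-sided and adjusted over all 13472 genes (Benjamini-Hochberg, threshold 0.05). Intervals are 95%. DESeq2 1.42.0 and limma 3.58.1 were alternatives. The fits were run on simulated counts drawn independently for each library. That setting lacks the correlation between same-numbered libraries given below, so it cannot show how the fits behave under it. Limits for 0 counts (3 counts over the 6 totals) cover counting error only.

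Same-numbered libraries deviated together from their group means, with correlations of 0.167, 0.576 and 0.260 for numbers 1, 2 and 3. The numbers were used as pairs in the pair ratios and the replicate block only. The main hairpin fit took group alone, so its standard errors and p-values ignore any pairing. Numbers 1 and 3 also correlated across groups, at 0.199 and 0.189, above the 0.167 of number 1, so a pairing of number 1 is not shown. The design text calls the replicates biological, but no source used here says that they came from separate cultures, and the p-values rest on the variation among the 6 libraries, which may be technical. No 2 libraries agreed within sampling noise.

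The 10 genes, the lists and the contrast of number 2 were chosen with earlier results of these data known. Named besides the 10 were 24 set genes of the lists and up to 3 more per list with the smallest p by number. Genes named outside that rule were chosen after their values were seen.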

Additional observations from a re-analysis of the deposited data

Results flagged for a closer look

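Gclc in the 4 libraries numbered 1 and 3 had 1 library away from the rest: the library labelled shIRS2 numbered 3 stood at 97.4 CPM, against 111 CPM in shIRS2 number 1 and 109.9 and 111 CPM in the shControl libraries numbered 1 and 3. Its gap to the nearest library was 0.891 of the range of the 4. The same comparison was made for each of the 10 genes, and chance marks about 1 in 20 such sets.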

How the results depend on the processing

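By hairpin, 0 of the 10 genes passed under every alternative run, and 0 of all genes did except for 1 with the replicate block, 4 with DESeq2 and the replicate block (chosen after seeing the data) and 6 without a filter on low counts. The block changed no call among the 10 genes. Leaving out single libraries moved the hairpin log2 fold change across 0 for Nqo1 (-0.11 to 0.14), Hmox1 (-0.16 to 0.21), Srxn1 (-0.10 to 0.03), Gclc (-0.13 to 0.03) and Prdx1 (-0.05 to 0.02). That of Keap1 ran from -0.10 to 0.00 after rounding. The difference by number crossed 0 for Keap1 (-0.08 to 0.01) and Prdx1 (-0.01 to 0.04). By number, 3169 genes became 1918 with DESeq2, 1808 and 1831 with limma on log2(FPKM + 1) and log2(FPKM + 0.1), and 808 (without shControl number 2) to 3687 with single libraries left out, 1081 without shIRS2 number 2. The 2 members called became 1 with either limma setting and 1 to 4 with single libraries left out, 4 without shIRS2 or shControl number 1. The 38 list genes became 25 with DESeq2 and 9 to 45 with single libraries left out. By number Hmox1 passed in all of these, with adjusted p-values of 7.57e-12 to 0.0036 when single libraries were left out. The cause of the other changes was not tested, except that leaving out a library numbered 2 leaves 1 library for that number. RLE scaling changed no direction or call among the 10 genes.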

Other observations

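Irs2, chosen here after its values were seen, passed the test by number and not by hairpin label. It had 28.6 CPM in the shIRS2 and 22.7 CPM in the shControl library numbered 2, against 31.4 and 38.7 CPM in the shIRS2 and 31.6 and 34.3 CPM in the shControl libraries numbered 1 and 3. The log2 difference by number was -0.38 (SE 0.10), with an edgeR adjusted p of 0.0107. Whether the difference by number exceeds that by hairpin was not tested.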
